A study of Canis lupus familiaris with 18 samples.

Results

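Canine primary endothelial cells (CaPECs) from the aorta were compared with CaPECs from the vena porta, with 3 samples from each vessel, which are 6 of the 18 samples sequenced. The members were chosen by the vessel and the cell type in the sample labels, with no measured value used. All 6 samples are primary cultures without any treatment, isolated from the abdominal vessels of healthy male dogs a little over a year old, grown on gelatin in canine endothelial growth medium and taken at passage 3. The cells were released from inverted vessels with collagenase and dispase and were not sorted, so each sample is a bulk culture. In such samples, fewer cells that express a gene and less RNA of it per cell cannot be told apart. The samples of each vessel are numbered 1 to 3, and the aorta and vena porta samples of one number share a number in the deposited table. The vessels came from 3 dogs, but neither the labels nor the methods state that this number is the dog. The other samples of the study are vena cava CaPECs and vascular smooth muscle cells (VSMCs) from the same kinds of vessel.

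The aorta carries oxygenated blood under high, pulsatile pressure, whereas the vena porta drains the gut and spleen toward the liver at low pressure. Arterial and venous endothelium are known to differ in gene expression from early development on. Notch ligands and receptors, ephrin-B2 and the gap junction proteins connexin 37 and 40 are typical of arteries, and the nuclear receptor COUP-TFII and the ephrin receptor EphB4 are typical of veins. The comparison asks how far cultured CaPECs from an artery and from the vein that feeds the liver differ in expression. The deposited table lists 24580 genes by Ensembl identifier only, and 0 of them matched the gene table at hand. The genes named above could therefore not be looked up, and the results below are given for groups of genes and for 2 identifiers in each direction.

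The total count per sample was 8464427, 6020932, and 10090704 for aorta 1, 2, and 3, and 13422177, 6169404, and 8004604 for vena porta 1, 2, and 3. The ranges of the vessels overlap, and each sample held 10857 to 11532 genes with 10 counts or more. Levels are given as counts scaled to a common library size (CPM), and a gene at 1 CPM rests on few reads. Replicates of a vessel differed by 8.26 to 16.8 times the squared difference that counting alone gives, so no sample is a copy of another.

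Without gene symbols, the cell type was checked with genes set from the vena cava CaPECs and the 9 VSMC samples, which lie outside the comparison or belong to the other cell type. This check was chosen after the data were seen. In 7 genes, every vena cava CaPEC sample was at 10 CPM or more and at least 10 times above every VSMC sample. Their summed level was 1382 to 1583 CPM in the aorta CaPECs, 1390 to 1606 CPM in the vena porta CaPECs, and 31.2 to 51.2 CPM in VSMCs, so all 6 samples lay far above the VSMCs. CaPECs and VSMCs were grown in different media, so genes set in this way cannot tell the cell type from the medium. The study itself reported CD31 and vWF staining in CaPECs from each vessel and none in VSMCs. In 19 genes, the lowest VSMC sample was at 10 CPM or more and at least 10 times above the highest vena cava CaPEC sample. Their summed level was 109.4, 267, and 103 CPM in aorta 1, 2, and 3, 85.6, 125, and 853 CPM in vena porta 1, 2, and 3, and 9218 to 28205 CPM in VSMCs. Vena porta 3 was thus the highest of the 6 samples, and the vessels overlapped. Of these 19 genes, 12 were tested between the vessels, with a median log2 fold change of 1.05 toward the aorta. At 1 CPM or more were 11 to 16 of the 19 in the aorta samples and 9 to 12 in the vena porta samples. Genes this low can pass the minimum count filter through 1 vessel alone, so the median and the shares that follow depend on it. By the thresholds given below, edgeR called 0 of the 12 (2.27% of all genes tested) and 2 with the number as a block (1.37% of all genes). An unadjusted p below 0.05 was seen in 6 of the 12 (14.2% of all genes), and DESeq2 called 5 (6.68% of all genes), of which 4 were higher in the aorta. The 6 genes were higher in the aorta in 5 cases. Of the 7 endothelial genes, edgeR called 0, 1 had an unadjusted p below 0.05, and DESeq2 called 1, lower in the aorta, and 1 of 7 is near the 14.2% of all genes at an unadjusted p below 0.05. The part of these genes in the results was not tested.

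The first question is how far the vessel separates the 6 samples. A principal component analysis of the 500 most variable genes put 61.7% of the variance on component 1 and 18.2% on component 2. Aorta 1, 2, and 3 had component 1 scores of 54.4, 20.2, and 24.4, and vena porta 1, 2, and 3 of -31.4, -23.7, and -43.9. The vessels did not overlap on this component, and aorta 1 lay apart from aorta 2 and 3 on both. Of the variance in these genes, 56.2% lay between the vessels. It was the largest share of the 10 ways to part 6 samples into 3 and 3, the next being 22.8% (one-sided p = 0.10 by exact permutation, which is the lowest value that 3 against 3 can give). The number shared by an aorta and a vena porta sample accounted for 23.6%. In the VSMC samples of the same vessels, 30.4% lay between the vessels and 52.8% between the numbers. The VSMC column names carry their own numbering, shared by the vessels, so VSMC 1 and CaPEC 1 need not belong together. The number has 2 degrees of freedom and the vessel 1, so the shares of the number and the vessel are given side by side and are not ranked.

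**Figure D1:**
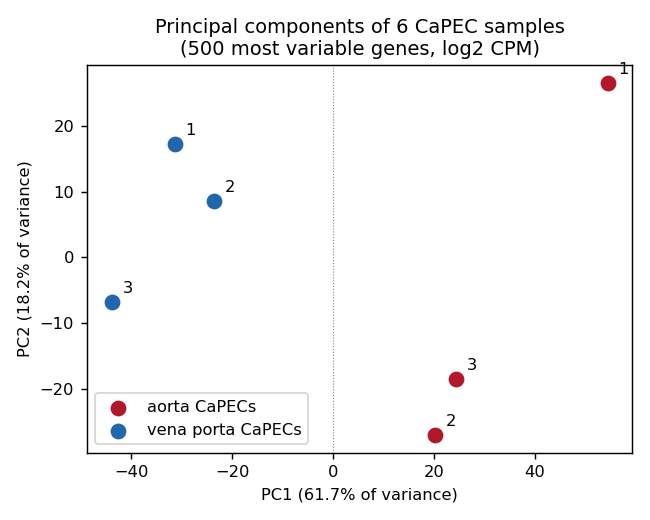
First and second principal component of the 6 CaPEC samples, in log2 CPM units over the 500 most variable genes, with each point a sample labelled by its number. The aorta samples lie at 20.2 or above on the first component and the vena porta samples at -23.7 or below.

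Between aorta and vena porta CaPECs, 255 of 11251 genes tested were called, 204 higher in the aorta and 51 higher in the vena porta. To be called, a gene needed an absolute log2 fold change above 0.4 and, in the quasi-likelihood test of edgeR, an adjusted p below 0.05. The calls were 2.27% of the genes tested, 1.81% higher and 0.453% lower in the aorta. Toward the aorta, the genes called had a median log2 fold change of 2.71, and it exceeded 1 in 191, 2 in 127, and 5 in 45. Toward the vena porta, the median was -1.82, and the size exceeded 1 in 41, 2 in 23, and 5 in 4. Among the genes called, those toward the aorta were thus more numerous and had the larger median change, while over all genes tested the median log2 fold change was -0.01 and the median size was 0.25. For 13 genes without a count in any vena porta sample and 1 without a count in any aorta sample, the fold change was set at the bound that 3 counts over the 3 libraries allow.

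Blocking on the number gave 154 calls (1.37%), of which 129 (1.15%) were toward the aorta and 25 (0.222%) toward the vena porta, and 127 of the 154 were among the 255. The study's methods name DESeq2, whose Wald test gave 752 calls (6.68%), 502 (4.46%) toward the aorta and 250 (2.22%) toward the vena porta, with 254 of the 255 among them. Before adjustment, 1595 genes (14.2%) had p below 0.05 in edgeR, 942 toward the aorta and 653 toward the vena porta, a less uneven split than among the 255. With all 9 CaPEC samples in the fit, 47 genes were called, 41 toward the aorta and 6 toward the vena porta, and with these and the block 18 were, 17 and 1. Aorta and vena porta samples did not overlap in any of the 255 genes. Over all genes tested, every aorta sample lay above every vena porta sample in 1302 (11.6%) and below in 1028 (9.14%). The gene just inside the threshold had an adjusted p of 0.0498 and the one just outside 0.0504 with edgeR.

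**Figure D2:**
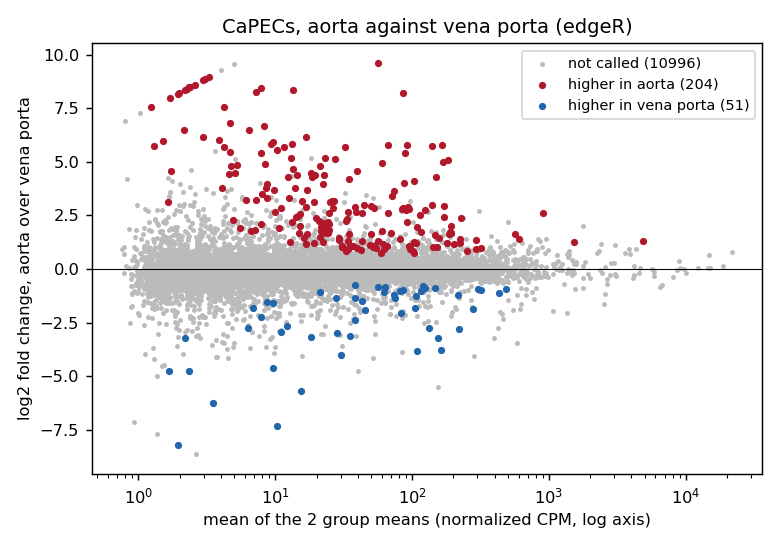
Log2 fold change of aorta over vena porta CaPECs against the mean level in normalized CPM (log axis) for the 11251 genes tested, each point a gene. The 204 genes called higher in the aorta reach larger changes than the 51 called higher in the vena porta, and the line of points at the upper left holds genes without a count in the vena porta, whose fitted value is no measured fold.

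The genes called spanned the range of expression. When the genes tested were split into 3 equal classes by mean level, 67 of 3751 were called in the low class (1.79%), 82 of 3750 in the middle class (2.19%), and 106 of 3750 in the high class (2.83%). The median size of the log2 fold change of the genes called fell from 5.42 in the low class to 2.41 in the middle and 1.59 in the high class. Genes of the low class were thus called at larger changes. The 204 genes higher in the aorta had a median level of 42.8 CPM in the aorta and 8.50 CPM in the vena porta, and 61 of them had a mean above 100 CPM in the aorta. The 51 genes higher in the vena porta had a median level of 71.5 CPM there and 22.5 CPM in the aorta, and 22 of them had a mean above 100 CPM in the vena porta.

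Since the vessels did not overlap, the direction was the same for each number in all 255 genes, and the size was compared between numbers. The median log2 difference between aorta and vena porta over the 204 genes was 2.80 for number 1, 2.22 for number 2, and 2.55 for number 3. Over the 51 genes it was -2.08, -1.41, and -1.75 in the same order. The samples numbered 2 were thus the closest to each other in both groups of genes, and the samples numbered 1 were the farthest apart.

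How many genes were called depended on single samples. Without vena porta 1, the deepest sample, 58 genes were called. Without aorta 1, 2, or 3 the number was 95, 110, or 95, and without vena porta 2 or 3 it was 171 or 130. Of the 255 genes, 43 were called in each of these 6 fits, 40 higher and 3 lower in the aorta, and the same 43 were also called with the number as a block and with DESeq2. The 40 genes had log2 fold changes from 1.62 to 9.61 with a median of 3.45, and the 3 had -3.18, -3.01, and -2.75. All 4 genes listed by identifier below are among the 43, but they were chosen for the smallest p in the fit of the same 6 samples.

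**Figure D3:**
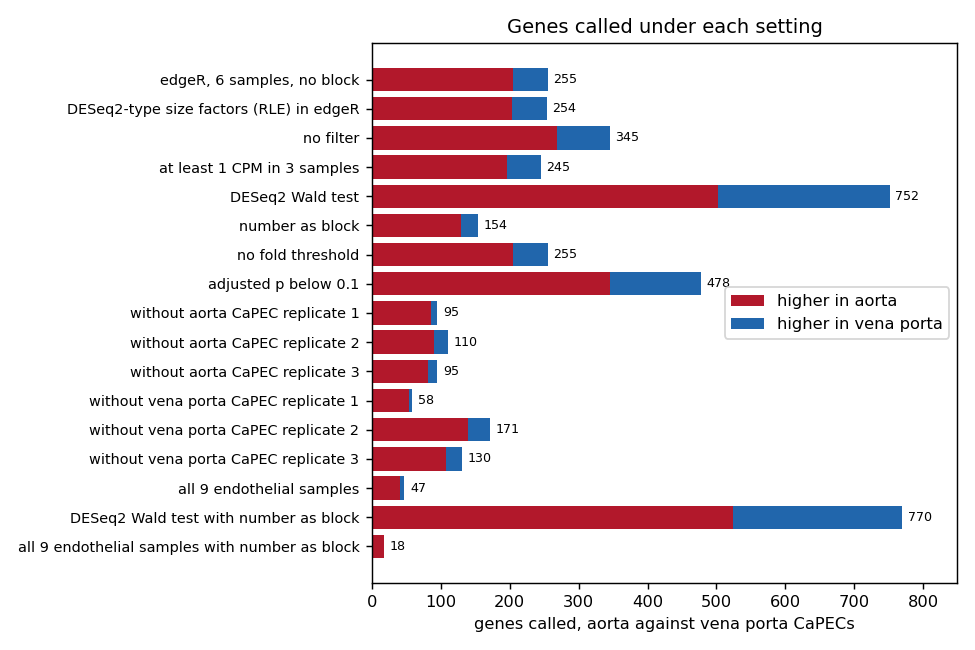
Number of genes called between aorta and vena porta CaPECs under each setting, with bars split by direction. The aorta holds the larger part of the bar in all settings shown, and the total runs from 18 to 770.

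ENSCAFG00000019473 had the smallest p-value among the genes higher in the aorta. It was at 38.1, 31.4, and 30.5 normalized CPM in aorta 1, 2, and 3, from 329, 194, and 348 counts, and at 0.540, 0.438, and 0.344 in vena porta 1, 2, and 3, from 8, 3, and 3 counts. The gene was thus near the limit of detection in every vena porta sample and close to the same level in all aorta samples. The means were 33.3 ± 4.15 CPM in the aorta and 0.441 ± 0.098 CPM in the vena porta (SD, n = 3 each), a log2 fold change of 6.15 ± 0.29 (SE) at an adjusted p of 0.000224 in edgeR. With the number as a block, the adjusted p from edgeR was 0.00477. In vena cava CaPECs, the gene was at 0.570, 0.275, and 1.02 CPM, which places all 3 samples with the vena porta. VSMCs had 3.76 to 10.9 CPM over 9 samples, above the venous CaPECs and below the aorta CaPECs.

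ENSCAFG00000010107 had the largest fold change of the genes called with a count in both vessels. It was at 150.4, 88.9, and 99.8 normalized CPM in aorta 1, 2, and 3, and at 0.135, 0, and 0.229 in vena porta 1, 2, and 3. The 3 vena porta samples had 4 counts in all, against 2987 in the aorta samples, and the groups did not come near each other. The ratio of the pooled levels was 865, with a 95% confidence interval of 338 to 3177 (exact binomial) that covers counting error only. Its log2 fold change was 9.61 ± 0.46 (SE) at an adjusted p of 0.000224 in edgeR, and with the number as a block the adjusted p from edgeR was 0.00477. Vena cava CaPECs had 0.684, 0, and 0.426 CPM and again lay with the vena porta. In VSMCs the gene was at 7.80 to 57.7 CPM in all 9 samples, above all 6 venous CaPEC samples, of which 4 had 2 to 6 counts and 2 had none.

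**Figure D4:**
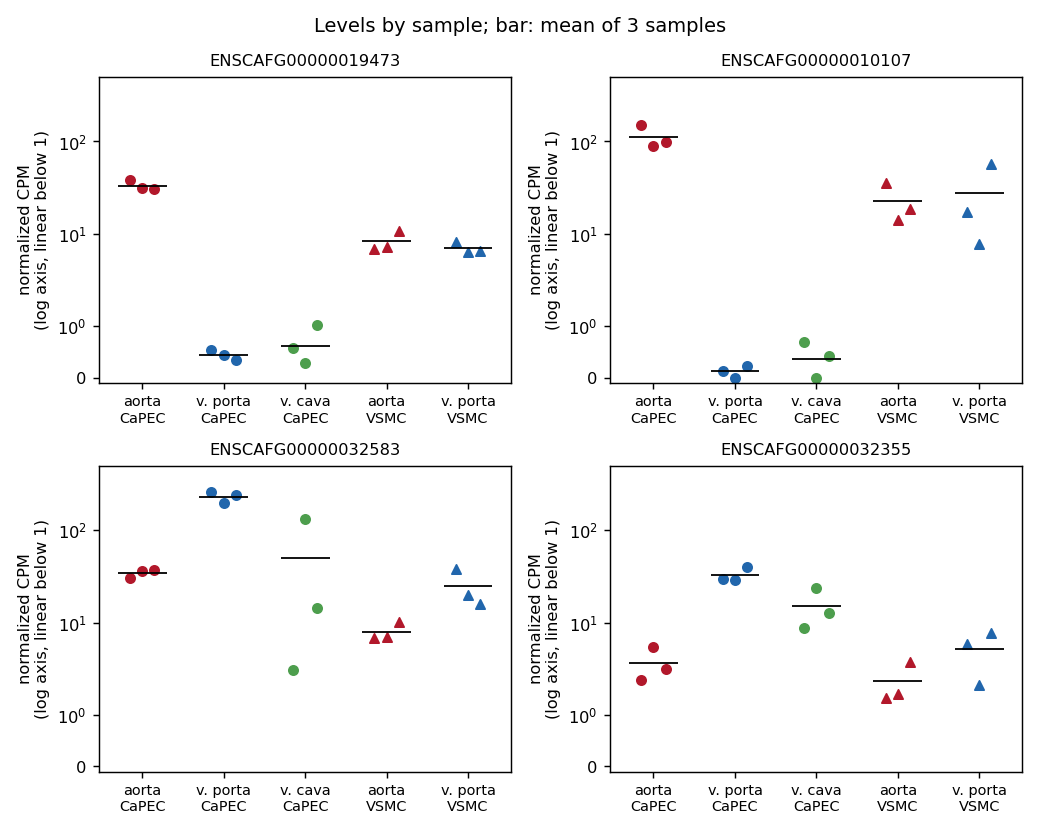
Normalized CPM by sample (log axis, linear below 1) of the 4 genes listed by identifier, with circles for CaPECs, triangles for aorta and vena porta VSMCs, and a bar at the mean of 3 samples. In the upper panels the aorta CaPECs lie at 30.5 CPM or above and all venous CaPECs at 1.02 CPM or below, and in the lower panels the vena porta CaPECs lie above the aorta CaPECs without overlap.

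A group of such genes was nearly silent in the vena porta. Of the 204 genes, 41 had at most 1 CPM in each vena porta sample, 13 of them without a count. Over all 11251 genes tested, 74 were at most at 1 CPM in each vena porta sample and 43 in each aorta sample. Genes this low in a vessel could pass the minimum count filter only through the other vessel, so their direction was fixed before the test. The mean level of the 41 genes in the aorta ran from 2.47 to 113 CPM with a median of 8.29, and 14 exceeded 10 CPM. For the 13 genes without a count, the level in the aorta was at least 24.7-fold to at least 71.8-fold higher, taking 3 counts over the 3 vena porta libraries as the floor. In vena cava CaPECs, 16 of the 41 were also at most at 1 CPM in each sample, whereas 8 had a mean above the lowest aorta sample. In aorta and vena porta VSMCs, 19 of the 41 were at most at 1 CPM in each of 6 samples and 3 had a mean above 10 CPM. In the other direction, 6 of the 51 genes higher in the vena porta had at most 1 CPM in each aorta sample, and 1 of the 6 exceeded a mean of 10 CPM in the vena porta.

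ENSCAFG00000032583 had the smallest p-value among the genes higher in the vena porta. It was at 30.8, 36.5, and 37.1 normalized CPM in aorta 1, 2, and 3, and at 259, 197, and 243 in vena porta 1, 2, and 3. It was thus well expressed in both vessels, and the groups were far apart. The means were 34.8 ± 3.49 CPM in the aorta and 233 ± 32.3 CPM in the vena porta (SD, n = 3 each), a log2 fold change of -2.75 ± 0.18 (SE) at an adjusted p of 0.000962 in edgeR. With the number as a block, the adjusted p from edgeR was 0.00998. Vena cava CaPECs had 3.08, 134, and 14.3 CPM, so that vena cava 2 lay between the vessels and the other vena cava samples lay below the aorta. With all 9 CaPEC samples in the fit, the log2 fold change of aorta over vena porta was -2.74 ± 1.02 (SE) and the adjusted p in edgeR 0.343, so the gene was no longer called.

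ENSCAFG00000032355 was next in this direction. It was at 2.43, 5.50, and 3.16 normalized CPM in aorta 1, 2, and 3, and at 29.8, 29.2, and 39.8 in vena porta 1, 2, and 3. The lowest vena porta sample was above the highest aorta sample, and the log2 fold change was -3.18 ± 0.33 (SE) at an adjusted p of 0.00647 in edgeR. With the number as a block, the adjusted p from edgeR was 0.0203. In vena cava CaPECs the gene was at 8.89, 23.8, and 12.9 CPM, between the other vessels in all 3 samples.

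The vena cava CaPECs were not used to choose the genes, and they show where the second vein lies. Over the 204 genes higher in the aorta, the median level relative to the vena porta mean was 0.76, 0.00, and 1.06 log2 units higher in vena cava 1, 2, and 3, against 2.77, 2.61, and 2.51 in aorta 1, 2, and 3. Over the 51 genes higher in the vena porta, the medians were -1.01, -0.45, and -1.33 in vena cava 1, 2, and 3, against -1.84, -1.54, and -1.74 in the aorta. Vena cava 2 was thus the closest to the vena porta in both groups of genes, and vena cava 1 and 3 lay between. The genes were chosen for the distance of the aorta from the vena porta, which these medians share. Tested on its own, the aorta against the vena cava had a median log2 fold change of 1.36 over the 204 genes and of -0.98 over the 47 of the 51 genes tested there, and this comparison uses the same aorta samples.

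The same vessels were compared in VSMCs, which are separate cultures in another medium. Of 11187 genes tested, 2 were called (0.0179%), 1 in each direction (0.00894% each), and 875 had an unadjusted p-value below 0.05 with edgeR. Blocking on the number gave 226 calls in edgeR (2.02%), 137 (1.22%) toward the aorta and 89 (0.796%) toward the vena porta, and DESeq2 without the block gave 145 (1.30%), 85 (0.760%) toward the aorta and 60 (0.536%) toward the vena porta. In VSMCs, samples of one number deviated together from their group means (correlation across genes 0.33 to 0.52), while in CaPECs they did not in every pair (-0.09 to 0.21). With edgeR, which cell type had more calls between aorta and vena porta thus depended on the block. DESeq2 without the block gave more calls in CaPECs (752) than in VSMCs (145), and with the block it was not run in VSMCs.

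In VSMCs, the genes called in CaPECs went in both directions. Of the 204 genes higher in aorta CaPECs, 161 were also tested in VSMCs, with a median log2 fold change of 0.20 there against 2.24 in CaPECs. In 103 of the 161 (64.0%) the VSMC difference was also toward the aorta, against 47.4% of all genes tested in both. For the 51 genes higher in the vena porta, 47 were tested in VSMCs, with a median of -0.15 there against -1.61 in CaPECs, and 26 of them (55.3%) were also lower in the aorta, against 52.6% of all genes. Whatever the direction, the median size of the log2 fold change in VSMCs was 0.39 over the 161 genes and 0.39 over the 47, against 0.17 over all genes tested in both. That the medians were smaller than in CaPECs follows in part from the choice of genes called there. In VSMCs, 37 of the 161 and 14 of the 47 had an unadjusted p below 0.05 (23.0% and 29.8%), against 7.54% of all genes tested in both. Of the genes called in VSMCs with the block, 14 were higher and 7 lower in the aorta in both cell types and 5 had opposite directions. These 26 genes are 12.5% of the 208 genes called in CaPECs and tested in VSMCs, where 1.93% of all 10714 genes tested in both were called, and 12.6% of the 207 genes called in VSMCs and tested in CaPECs, where 1.94% of all genes tested in both were called.

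One gene was called in the same direction in both cell types without the block. In CaPECs it was at 37.6, 37.5, and 31.1 CPM in the aorta and 1.82, 1.46, and 2.06 CPM in the vena porta, a log2 fold change of 4.29 ± 0.24 (SE) at an adjusted p of 0.000419 in edgeR. In VSMCs it was at 47.6, 40.9, and 43.3 CPM in the aorta and 12.7, 10.7, and 13.2 CPM in the vena porta, a log2 fold change of 1.83 ± 0.16 (SE) at an adjusted p of 0.0279 in edgeR. The aorta cultures of both cell types were at a similar level, and the vena porta cultures differed between the cell types. The VSMC call depended on single samples. Without aorta VSMC 1 or 2 or vena porta VSMC 1 or 2, edgeR called 0 genes higher in aorta VSMCs. In these fits, 539, 972, 877, and 864 genes had an unadjusted p below 0.05. Without aorta VSMC 3, edgeR called 2 genes higher, and without vena porta VSMC 3 it called 1. Whether the gene described here was among them is not given. The gene was singled out after its values were seen.

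Whether the difference between aorta and vena porta was itself different in the cell types was tested as an interaction over the 12 samples. Of 11962 genes, 62 passed this test in edgeR with an adjusted p below 0.05 (0.518%), 51 with the change more toward the aorta in CaPECs and 11 with it more toward the vena porta. Among them, 48 were higher and 8 lower in the aorta in the test within CaPECs. Of the 54 tested within both cell types, 53 changed more in CaPECs than in VSMCs, against 60.9% of all genes tested in both, but 56 of the 62 were themselves called in CaPECs, so this count is shaped by that overlap. The biological coefficient of variation between samples of a vessel was 0.326 for CaPECs and 0.263 for VSMCs, and with the number as a block it was 0.311 and 0.165. With the number as a block in each cell type, 137 genes passed (1.15%), 57 of them among the 62, and 35 did with limma when each cell type had its own variance (0.293%), 31 of them among the 62. A total of 30 genes were called in all 3 fits. Without one of the VSMC or CaPEC samples, the number ran from 21, without aorta VSMC 1, to 111, without vena porta CaPEC 2. It also fell to 25, 31, and 38 without aorta VSMC 2, vena porta VSMC 3, and aorta CaPEC 1.

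**Figure D5:**
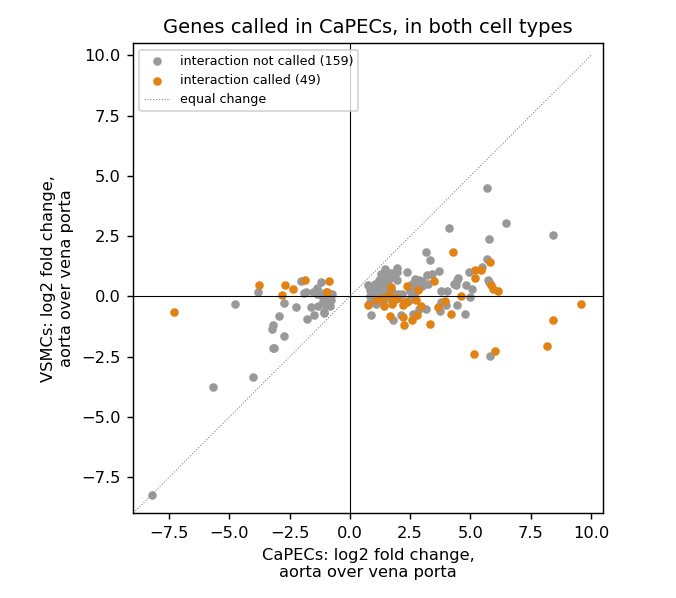
Log2 fold change of aorta over vena porta in VSMCs against that in CaPECs for the 208 genes called in CaPECs and tested in both cell types, each point a gene, with the 49 that were also called in the interaction in orange. The genes were chosen for their change in CaPECs, which by itself widens the spread on that axis, and their VSMC changes lie on both sides of 0.

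For ENSCAFG00000019473, aorta and vena porta VSMCs had 8.30 ± 2.22 and 7.01 ± 1.07 CPM (SD, n = 3 each), a log2 fold change of 0.23 ± 0.28 (SE) at an adjusted p of 0.927 in edgeR. The difference of the differences was 5.91 on the log2 scale (standard error 0.39, adjusted p = 4.15e-05 from edgeR, 0.00165 with the block, and 0.00559 from limma). For ENSCAFG00000010107, VSMCs had 22.9 ± 11.4 CPM in the aorta and 27.5 ± 26.5 CPM in the vena porta, and the difference of the differences was 9.89 (standard error 1.17, adjusted p = 0.00377 from edgeR and 0.0113 with the block). With limma, the adjusted p for this gene was 0.338, so its interaction rests on the test used.

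For the 2 listed genes that were higher in the vena porta, the interaction was not called. ENSCAFG00000032583 was at 6.82, 7.02, and 10.2 CPM in aorta VSMCs and at 38.4, 19.99, and 15.9 CPM in vena porta VSMCs, without overlap and in the same direction as in CaPECs. Its log2 fold change in VSMCs was -1.63 ± 0.36 (SE) at an adjusted p of 0.259 in edgeR, and with the block -1.56 ± 0.32 at 0.0495. The difference of the differences was -1.13 (standard error 0.40, adjusted p = 0.312 from edgeR). For ENSCAFG00000032355, the VSMC samples of the vessels overlapped, and the difference of the differences was -2.00 (standard error 0.67, adjusted p = 0.271 from edgeR).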

How the data were processed

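The authors aligned single-end reads of 75 bases from polyadenylated RNA to canFam3 with STAR 2.4.2a, used Sambamba for sorting and HTSeq-count 0.6.1p1 (union mode) for the number of reads on each gene, and deposited the raw read counts without normalization. The annotation release and the strand setting of the counting are not given in the sources used here, so reads of overlapping genes on opposite strands may not be told apart, and near-identical copies could not be identified without symbols.

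From the deposited counts, groups were compared with edgeR 4.0.16 in R 4.3.3 (TMM, filterByExpr with a minimum count of 10, glmQLFit, and glmQLFTest), with Benjamini-Hochberg adjustment over all genes tested. The reported test used the 6 samples compared, without a block. DESeq2 1.42.0, limma 3.58.1, other filters and size factors, the number as a block, all 9 CaPEC samples, and leaving out each sample were alternatives. Normalized CPM used TMM factors over all 18 samples. Standard errors were derived from edgeR's F statistic. The tests were checked on simulated counts. Identifiers are printed for 2 genes per direction, those with the smallest p among the calls in which the vessels did not overlap. The comparison, lists and rule were chosen with earlier results of these data known. Marker lists, pathway lists and sequences need gene symbols and were not used here. P-values measure the spread between 3 cultures per vessel. Correlations of deviations from the group means between samples of one number averaged 0.07 in CaPECs and 0.40 in VSMCs.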

Additional observations from a re-analysis of the deposited data

Results flagged for a closer look

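Of 11962 genes, 62 had a different aorta-to-vena porta difference in CaPECs and VSMCs, by edgeR's test of the interaction. Among the genes listed by identifier, this held for ENSCAFG00000019473, with a difference of the differences of 5.91 on the log2 scale, and for ENSCAFG00000010107, with 9.89. For the latter it did not hold with limma. Vessel groups of 3 samples were too small to test for single samples far from the others.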

How the results depend on the processing

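For CaPECs, where 255 genes were called, the number was 752 with DESeq2, 770 with DESeq2 and the replicate block, 478 at an adjusted p below 0.1, 154 with the replicate block, 47 with all 9 CaPEC samples in the fit, and 18 with these and the block, the DESeq2 fit with the block and the last one being chosen after the data were seen. With one sample left out it was 58 to 171. Size factors of the DESeq2 type, no filter, a filter at 1 CPM, and no fold threshold gave 245 to 345. For VSMCs, where 2 genes were called, the number was 25 without a filter, 145 with DESeq2, 226 with the replicate block, and 0 to 8 with one sample left out, being 0 in edgeR without aorta 2, vena porta 1, or vena porta 2, where 972, 877, and 864 genes had an unadjusted p below 0.05. For the interaction, with 62 genes, it was 113 without a filter, 307 with DESeq2, 137 with the replicate block, 35 with limma, and 21 to 111 with one sample left out. The share of variance by vessel, 56.2%, was 43.2% over all genes, 49.6% with a prior count of 0.5, and 53.4% to 61.5% with one sample left out. The cause of these changes was not tested. The 4 genes listed by identifier kept their direction in 14 alternatives each. This follows from their choice, since their aorta and vena porta samples did not overlap. ENSCAFG00000032583 was not called with all 9 CaPEC samples, without or with the block, and no other call of the 4 was lost. The gene lists chosen for this comparison were not run, since the identifiers could not be paired with symbols. The precision is limited by 3 samples per vessel and 6020932 to 13422177 counts per sample.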
